A study of Oryza sativa Japonica Group with 3 samples.

Results

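Expression of 8 nuclear genes assigned to the Calvin cycle of the chloroplast was followed in rice seedlings grown from untreated seed and from seed implanted with nitrogen ions. The genes were taken from a fixed list of locus identifiers, and they are 8 of the 55759 annotated loci in the data. All 8 averaged at least 10 FPKM, as did 9265 annotated loci in total. The names used below come from that list. The deposited files give identifiers only, and none of the 8 identifiers matched the reference gene table, so the names could not be checked against the data.

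The seedlings were of the cultivar Xindao-18 (Oryza sativa, Japonica group), kept on wet filter paper at a constant 28 °C with light for 12 h and darkness for 12 h and harvested whole at 96 h. The control library came from 1 RNA pool of 50 untreated buds. The low fluence library mixed equal RNA (10 µg each) from the pools given 1 and 2, and the high fluence library from the pools given 6 and 8, in units of 1e+17 N+ per square centimetre as the labels' exponent was read. The labels call the first mixture free of significant damage and the second significantly damaged, a grading of growth on the seventh day, after the harvest. No agent other than the ion beam separates the groups in the labels, and buds of like height were chosen in each pool. Each group is a single library of pooled RNA, so replicate error is unknown for every difference below and no p-value is given.

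The Calvin cycle is the set of stromal reactions by which chloroplasts turn carbon dioxide into sugar phosphates, using the ATP and NADPH that the light reactions supply. After Rubisco has fixed carbon dioxide, phosphoglycerate kinase and the NADPH-dependent glyceraldehyde phosphate dehydrogenase, built from GAPA and GAPB subunits, reduce the product to triose phosphate. Aldolase, transketolase and sedoheptulose bisphosphatase (SBPase) then rearrange triose phosphates, and phosphoribulokinase closes the cycle by remaking the acceptor ribulose bisphosphate. CP12 is a small protein without catalytic activity that ties the dehydrogenase and phosphoribulokinase into an inactive complex in the dark. In seedlings these genes are known as light-induced genes of green tissue.

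The unit is FPKM, a count of sequenced fragments corrected for transcript length and for the mapped fragments of the library, summed over the transcripts of a locus, and ratios are on the scale of FPKM + 1. The libraries listed 24804 annotated loci above 0 in control seedlings, 23652 after low and 25815 after high fluence. The number of fragments behind each value is unknown. RNA of whole seedlings was measured, so a changed share of green cells and a changed amount of RNA per green cell cannot be told apart. Both irradiated libraries are compared with the same control library, so the comparisons with control are not independent of each other.

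In the low fluence library 7 of the 8 genes stood above the control, by 1.55-fold to 2.49-fold, and only transketolase did not. The median log2 ratio of the 8 was 0.70, a 1.62-fold difference, where the median over the 9265 loci was -0.07. In the high fluence library 6 genes stood above the control, or 7 to 8 under the scaling and centring alternatives, and the median log2 ratio was 0.57, against -0.15 over all loci, but the genes spread further apart, from -0.34 for GAPA to 1.36 for CP12. Summed over the 8 genes, expression was 402 FPKM in control seedlings, 621 after low and 602 after high fluence.

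**Figure D1:**
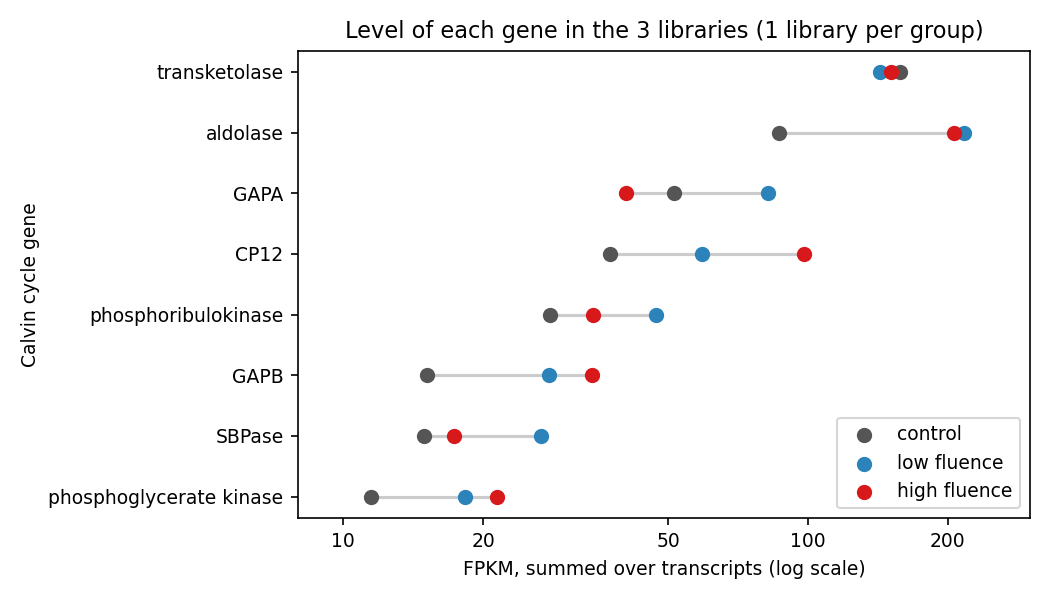
FPKM of the 8 Calvin cycle genes (rows, ordered by control level) on a log axis, with 1 point per library and a grey line over the range of the 3 libraries. The control point is the lowest of the 3 for 6 genes, GAPA is lowest at high fluence, and the 3 transketolase points lie together between 143 and 157 FPKM.

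At the reduction step, 2 of the 3 genes were highest at high fluence, and GAPA was not. Phosphoglycerate kinase (LOC_Os05g41640, chromosome 5), which uses ATP to phosphorylate phosphoglycerate, stood at 11.5 FPKM in control seedlings, 18.3 after low and 21.4 after high fluence. It had the lowest level of the 8 in the control and at low fluence. Its log2 ratio to control was 0.63 after low and 0.84 after high fluence, with both irradiated libraries above the control. The assembled unit CUFF.10027 lies in the row beside it, at 10.9 FPKM in control seedlings, 7.27 after low and 9.57 after high fluence, and with this unit added the log2 ratios of the sum were 0.18 and 0.45.

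GAPA (LOC_Os04g38600, chromosome 4), the subunit that can also form a dehydrogenase without its partner, stood at 51.5 FPKM in control seedlings, 82.0 after low and 40.6 after high fluence. Low fluence was thus the highest of the libraries and high fluence the lowest. The log2 ratio to control was 0.66 after low and -0.34 after high fluence, the latter 1.26-fold lower, and it turned to 0.49 when each library was rescaled to an FPKM total of 1000000. From low to high fluence GAPA was 2.00-fold lower as deposited, with a log2 ratio of -0.998 that lay just short of the 2-fold limit. With the total of 1000000 that log2 ratio was -0.01, where the median of all loci was 0.83.

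Part of the GAPA values rested on a minor transcript. Of its 4 listed transcripts, number 3 carried 48.2 FPKM in control seedlings, 59.7 after low and 40.6 after high fluence, and number 4 carried 3.33, 22.4 and 0. Transcripts 1 and 2 were listed at 0 in every library. On transcript 3 alone the order of the libraries was the same, but the log2 ratio to control at low fluence was 0.30 and that of high to low fluence -0.55. The assembled unit CUFF.8524 in the row beside GAPA was more abundant than GAPA itself in every library, at 95.6 FPKM in control seedlings, 94.4 after low and 67.8 after high fluence. Added to GAPA it gave 147, 176 and 108 FPKM, again with high fluence lowest. The files give no coordinates for assembled units, so whether it shares reads with GAPA was not tested.

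GAPB (LOC_Os03g03720, chromosome 3), the subunit whose C-terminal extension resembles CP12 and makes the plant enzyme responsive to light, stood at 15.2 FPKM in control seedlings, 27.8 after low and 34.3 after high fluence. It was 1.78-fold above control after low and 2.18-fold above control after high fluence, so that, unlike GAPA, its level was highest in the high fluence library. All of its FPKM belonged to 1 of its 2 listed transcripts.

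The subunits of this one enzyme therefore differed in balance between libraries. The FPKM ratio of GAPA to GAPB was 3.40 in control seedlings, 2.95 after low and 1.18 after high fluence. A ratio within a library does not depend on how the libraries are scaled. With GAPA transcript 3 alone the ratio was 3.18, 2.15 and 1.18, and with the neighbouring assembled unit added to GAPA it was 9.69, 6.35 and 3.16, lowest at high fluence in each case. With all GAPA transcripts counted, the sum of both subunits varied less in relation to phosphoribulokinase, their partner in the CP12 complex. The sum stood at 2.39 times the phosphoribulokinase level in control seedlings, 2.34 after low and 2.17 after high fluence. This ratio was not taken on GAPA transcript 3 alone or with the assembled unit added. It depends on both choices, since transcript 4 carried 3.33, 22.4 and 0 FPKM in the control, low and high fluence libraries. The unit carried 95.6, 94.4 and 67.8 FPKM. The narrow range of the ratio therefore holds only for all GAPA transcripts without the unit.

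Among the genes of the regeneration step, aldolase showed the widest separation from the control. Plastid aldolase (LOC_Os11g07020, chromosome 11), which joins triose phosphates into larger sugar phosphates, stood at 86.4 FPKM in control seedlings, 217 after low and 206 after high fluence. Both irradiated libraries were at least 2-fold above the control, by 2.49-fold and 2.36-fold. As deposited they lay close to each other, with a log2 ratio of high to low fluence of -0.08. On rescaling to a total of 1000000 that log2 ratio was 0.92, where the median of all loci was 0.83. The aldolase ratio to control at low fluence exceeded that of 99.6% of the 9265 loci, and its ratio at high fluence that of 98.8%. Transcript 1 carried at least 98.2% of its FPKM in every library.

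Transketolase (LOC_Os06g04270, chromosome 6), which moves carbon pairs between sugar phosphates and also serves the pentose phosphate pathway, stood at 157 FPKM in control seedlings, 143 after low and 151 after high fluence. As deposited these were the closest values of any of the 8 genes. The transketolase log2 ratio was -0.14 after low and -0.06 after high fluence, or -0.07 and 0.09 once the median of all loci was subtracted. The ratio at high fluence was above 0 under each of the 5 scaling and centring alternatives. On rescaling to a total of 1000000 the log2 ratios were -0.28 and 0.79, where the medians of all loci were -0.19 and 0.64. Aldolase stood at 0.549 times the transketolase level in control seedlings, 1.52 times after low and 1.36 times after high fluence, so the order of these 2 genes, the most abundant of the 8, was exchanged in both irradiated libraries.

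SBPase and phosphoribulokinase, the regeneration enzymes that thioredoxin activates in the light, shared a pattern. SBPase (LOC_Os04g16680, chromosome 4), which removes a phosphate from sedoheptulose bisphosphate, stood at 14.9 FPKM in control seedlings, 26.7 after low and 17.3 after high fluence. Phosphoribulokinase (LOC_Os02g47020, chromosome 2) stood at 27.9, 47.0 and 34.5 FPKM. Both were highest at low fluence and nearer the control at high fluence. The log2 ratio to control of SBPase was 0.80 after low and 0.20 after high fluence, and that of phosphoribulokinase 0.73 and 0.30. Phosphoribulokinase stood at 1.87, 1.76 and 1.99 times the SBPase level in the control, low and high fluence libraries. High over low fluence, SBPase was 1.51-fold and phosphoribulokinase 1.35-fold lower, a direction that turned for both on rescaling to a total of 1000000.

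CP12 (LOC_Os01g19740, chromosome 1), the regulator of the cycle, stood at 37.5 FPKM in control seedlings, 59.3 after low and 97.8 after high fluence. Its level was highest at high fluence and its log2 ratio to control was 0.65 after low and 1.36 after high fluence. The ratio at high fluence, 2.56-fold, was the highest of the 8 genes as deposited and exceeded that of 99.2% of the 9265 loci. The only transcript listed for it carried the whole value, and the assembled unit in the next row, CUFF.53, stood at 8.00, 4.69 and 3.34 FPKM. With that unit added the log2 ratio of CP12 at high fluence was 1.13, below the 1.24 of aldolase. In relation to phosphoribulokinase, CP12 stood at 1.35 times in control seedlings, 1.26 times after low and 2.84 times after high fluence. In relation to the summed dehydrogenase subunits it stood at 0.563, 0.540 and 1.31 times.

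**Figure D2:**
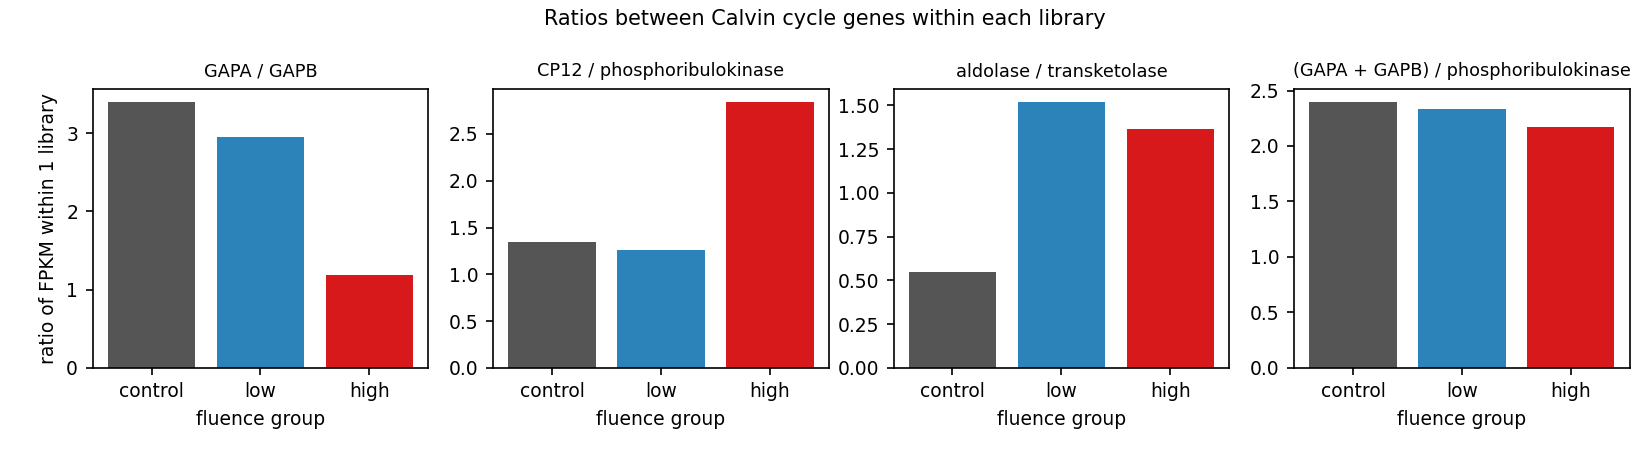
FPKM ratios between Calvin cycle genes within each library, as bars from 0, for the control, low and high fluence libraries (1 library each, so no error bars). GAPA to GAPB is lowest at high fluence (1.18) and CP12 to phosphoribulokinase is highest there (2.84). Aldolase to transketolase is above 1 only in the irradiated libraries. The summed dehydrogenase subunits, with all GAPA transcripts counted and no assembled unit added, stay between 2.17 and 2.39 times phosphoribulokinase.

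The counts past a fixed ratio place these genes among the rest. At low fluence 1 of the 8 genes, aldolase, was at least 2-fold above control, where 0.928% of the 9265 loci were, and none was 2-fold lower, where 1.08% were. At a ratio of at least 1.5, 7 of the 8 were higher, against 4.60% of all loci, and none lower, against 4.33%. With the assembled units in adjacent rows added, that count of 7 was 4, against 4.57% of all loci. GAPA, phosphoglycerate kinase and CP12 were then no longer past 1.5-fold. On rescaling to a total of 1000000 the count was 3, against 2.27% of all loci on that scale. The 7 genes lay above at least 96.1% of the 9265 loci, whereas transketolase lay above 39.6%.

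At high fluence 3 of the 8, aldolase, GAPB and CP12, were at least 2-fold above control, against 2.37% of all loci. With a pseudocount of 5 GAPB dropped out at a log2 ratio of 0.96, leaving 2, against 1.49% of all loci on that setting. With equal totals over annotated loci phosphoglycerate kinase entered at 1.03, making 4, against 4.16%. As deposited none was 2-fold lower, against 5.20%. At a ratio of at least 1.5, 4 were higher, phosphoglycerate kinase being the addition, against 7.43%, and none was lower, against 17.3%. With adjacent assembled units added phosphoglycerate kinase dropped out at a log2 ratio of 0.45, leaving 3, against 7.415% of all loci. Rescaling to a total of 1000000 put 7 past a ratio of 1.5, against 55.3% of all loci on that scale. SBPase and phosphoribulokinase lay above 77.7% and 83.2% of the loci, transketolase above 58.6% and GAPA above 33.8%.

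High and low fluence were compared without use of the control. None of the 8 genes was at least 2-fold higher, where 1.18% of all loci were, or lower, where 2.97% were. At a ratio of at least 1.5, CP12 was higher, against 4.36% of loci, and GAPA and SBPase were lower, against 10.8%. Only 1 of GAPA and SBPase passed this ratio with a pseudocount of 5, median-of-ratios or upper-quartile scaling, equal totals, centring or the highest transcript alone. On those settings between 6.53% and 11.7% of all loci were lower by this ratio. On rescaling to a total of 1000000, 5 genes were higher and none lower, against 75.8% and 0.799% of all loci on that scale. The median log2 ratio of the 8 was 0.00, against -0.09 over all loci, with 4 genes above 0 and 4 below. CP12, GAPB and phosphoglycerate kinase were at 0.71, 0.29 and 0.22, whereas GAPA, SBPase and phosphoribulokinase were at -0.998, -0.59 and -0.44, and aldolase and transketolase at -0.08 and 0.08.

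**Figure D3:**
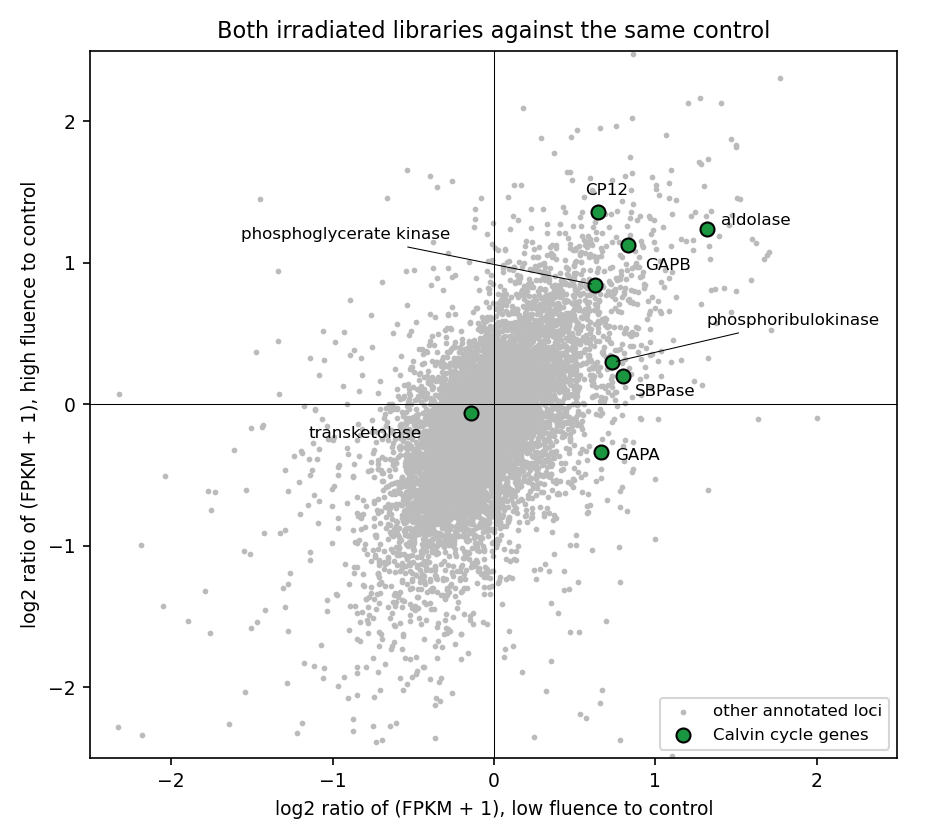
Log2 ratio of (FPKM + 1) to control at low fluence (horizontal) and at high fluence (vertical) for the 8 Calvin cycle genes (green) and 9257 other annotated loci averaging at least 10 FPKM (grey, 57 of them outside the axes). The shared control enters both axes, so the tilt of the grey cloud is not a result. Of the genes, 7 lie to the right of 0, between 0.63 and 1.32, and they spread vertically from -0.34 (GAPA) to 1.36 (CP12).

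The order of levels also differed between libraries. From highest to lowest, the control gave transketolase, aldolase, GAPA, CP12, phosphoribulokinase, GAPB, SBPase and phosphoglycerate kinase. Low fluence differed from this order by the exchange of aldolase and transketolase. At high fluence CP12 also stood above GAPA, and phosphoglycerate kinase above SBPase. GAPB and SBPase in the control (15.2 and 14.9 FPKM) and GAPB and phosphoribulokinase at high fluence (34.3 and 34.5 FPKM) were near ties whose order cannot be judged without replicates. Aldolase made up 21.5% of the summed FPKM of the 8 genes in control seedlings, 34.9% after low and 34.1% after high fluence, and transketolase 39.1%, 23.0% and 25.0%. CP12 made up 9.33%, 9.55% and 16.2%, and GAPA 12.8%, 13.2% and 6.73%.

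The 8 genes were then set beside other lists of locus identifiers, drawn up from general knowledge of rice loci. Since no source used here pairs those identifiers with names, each list is described as a whole. Of 8 further identifiers drawn up as Calvin cycle genes, 1 was listed at 0 in all libraries and 7 had a mean of at least 10 FPKM. The median log2 ratio to control of these 7 was 0.15 after low and -0.13 after high fluence, or 0.22 and 0.02 once the medians of all loci were subtracted, and the second turned above 0 under upper-quartile scaling, both kinds of total scaling and centring. At low fluence 1 of the 7 was at least 2-fold higher and none lower, against 0.928% and 1.08% of all loci. At high fluence none passed 2-fold in either direction, against 2.37% higher and 5.20% lower.

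A list of 13 identifiers drawn up as cytosolic enzymes of the same reactions, which serve glycolysis and sucrose synthesis, held 9 with a mean of at least 10 FPKM. Of those left out, 1 was at 0 in all libraries. The others left out had log2 ratios of 0.65, 0.59 and -0.53 after low and 0.38, 0.04 and -0.53 after high fluence. At low fluence 8 of the 9 stood below the control and 1 above, with a median log2 ratio of -0.36, against -0.07 over all loci. At high fluence all 9 stood below, with a median of -0.46, against -0.15 over all loci, and a range from -1.16 to -0.20. Rescaling to a total of 1000000, however, put 7 of them above 0 with a median of 0.39. On that scale the median of all loci was itself 0.64, and none of the 9 lay above it. Centring on expression bins put 2 of the 9 above 0. None was 2-fold lower at low fluence, where 1.08% of all loci were, and 1 was at high fluence, where 5.20% were. The sum over the cytosolic list was 3380 FPKM in control seedlings, 2706 after low and 2533 after high fluence. The 8 plastid genes made up 10.6%, 18.7% and 19.2% of the FPKM of both lists together, a share that does not depend on the scaling of the libraries.

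A list of 25 identifiers drawn up as nuclear genes of the light reactions, of which 23 had a mean of at least 10 FPKM, showed how the Calvin cycle genes lay beside the other genes of photosynthesis. At low fluence all 23 stood above the control, with a median log2 ratio of 0.66, close to the 0.70 of the 8 Calvin cycle genes, and 2 were at least 2-fold higher, against 0.928% of all loci. Rescaling to a total of 1000000 left 22 of the 23 above 0. At high fluence 8 of the 23 stood above the control and 15 below. This split by sign is near that of all loci. The transketolase log2 ratio of -0.06 lay above 58.6% of all loci, so at least that share stood below the control. Above the median of all loci lay 9 of the 23. Of the 23, 10 were at least 2-fold below control, against 5.20% of all loci, and none was 2-fold above, against 2.37%. The median was -0.68 and the range ran from -5.86 to 0.87, where the 8 genes had 3 at least 2-fold above and none below. Rescaling to a total of 1000000 put that median at 0.14, below the 0.64 of all loci on that scale. The summed level of the 25 was 2885 FPKM in control seedlings, 4482 after low and 1564 after high fluence. With 1 library per group, the difference between the lists was not tested.

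Identifiers drawn up as markers of other tissues also differed between libraries. All 4 identifiers of a root list were below the control in both irradiated libraries, with median log2 ratios of -0.89 and -2.00, and 4 of 4 were at least 2-fold lower at high fluence, against the same 5.20%. Their summed level was 1181 FPKM in control seedlings, 677 after low and 293 after high fluence, and none was at 0. Of 11 identifiers of an endosperm and aleurone list, 3 were at 0 in all libraries and 1 had a mean of at least 10 FPKM. The sum of that list was 34.5 FPKM in control seedlings, 1.14 after low and 4.49 after high fluence. LOC_Os02g52710 alone gave 31.4, 0 and 0.365 FPKM of it, and the other 10 summed to 3.14, 1.14 and 4.12 FPKM, highest at high fluence. The part of tissue proportions in the values of the Calvin cycle genes was not tested.

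**Figure D4:**
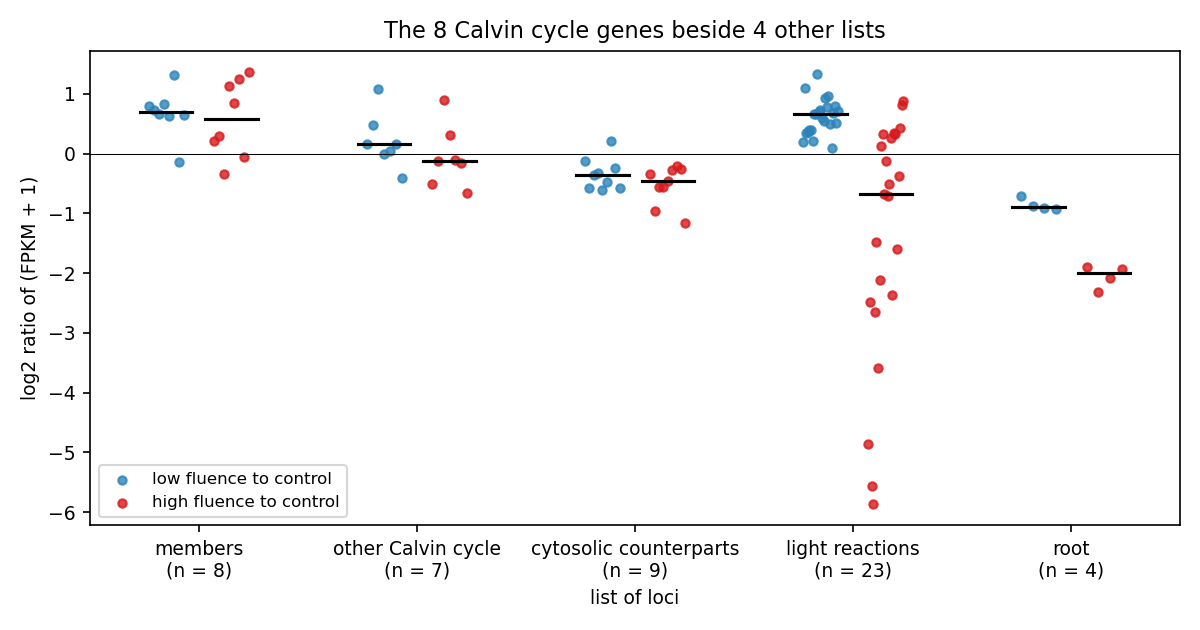
Log2 ratio of (FPKM + 1) to control at low fluence (blue) and high fluence (red) for the 8 Calvin cycle genes (members) and 4 lists of other identifiers with a mean of at least 10 FPKM, with the median as a black bar. At low fluence the members and the light reactions list have medians of 0.70 and 0.66, and at high fluence 0.57 and -0.68. At high fluence the light reactions list has 8 loci above 0 and 15 below, and 9 above the median of all loci. The root list lies below 0 in both comparisons.

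Among 899 other annotated loci averaging at least 100 FPKM and outside the lists, the ones whose pair of ratios to control lay nearest to the pair of medians of the 8 genes were LOC_Os02g33070 and LOC_Os02g44320, both on chromosome 2. LOC_Os02g33070 stood at 141 FPKM in control seedlings, 221 after low and 201 after high fluence, at a distance of 0.08 on the log2 scale. LOC_Os02g44320 stood at 554, 867 and 865 FPKM, at a distance of 0.09. The likeness rests on 3 libraries, and the files give no names for these loci.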

How the data were processed

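The deposited files list FPKM, 1 value per transcript and library, per the file headers. TopHat2 2.0.5, a read aligner, is named in the submitters' processing notes. Not given in the sources used here were the genome build and annotation, the program behind the FPKM values, the use of strand and the handling of reads from near-identical copies. Every file lists an identical set of 87523 transcripts. FPKM was summed over transcripts sharing a locus identifier (Python 3.11.15, pandas 2.3.3, numpy 2.4.6), and ratios were taken as log2 of (FPKM + 1), which understates differences of low genes. Counts of genes use ratios of at least 2 and at least 1.5, set beside all annotated loci averaging at least 10 FPKM. The counting rule was tested on simulated data.

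FPKM gives no fragment totals. The steps between the lowest values of loci with a single transcript (559 loci above 0 but under 0.2 FPKM in both libraries) placed 83.2% of low fluence to control ratios within 1% of ratios of whole numbers up to 6 at a relative depth of 0.501, but 82.3% at 1.00. For high fluence to control the best relative depth was 1.36, with 78.0% of ratios, against 69.7% at 2.73 and 74.8% at 0.681. For high to low fluence it was 1.35, with 80.1%, against 78.5% at 2.70 and 68.9% at 0.676. These best values cannot all hold at once. The relative depth was therefore not settled, and no counting interval is given.

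The 8 genes and the other lists were chosen with earlier results of these data known. Named beyond the 8 are the 2 loci averaging at least 100 FPKM nearest in pattern. Alternatives were pseudocounts of 0.1 and 5, median-of-ratios, upper-quartile and total scaling (over annotated loci, or to 1000000 over all transcripts), centring on 20 expression bins, the highest transcript alone, adding assembled units in adjacent rows, ratios of at least 1.5 and 3, and other minimum means. Sequences of these genes were not used here.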

Additional observations from a re-analysis of the deposited data

Results flagged for a closer look

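GAPA (LOC_Os04g38600) was singled out because its differences from control pointed in opposite directions in the irradiated libraries, with a log2 ratio of 0.66 after low and -0.34 after high fluence. Among the 8 genes it was the only one to do so as deposited. Transketolase also did under median-of-ratios scaling (-0.10 and 0.05), upper-quartile scaling (-0.08 and 0.10), equal totals (-0.09 and 0.14), a total of 1000000 (-0.28 and 0.79) and centring (-0.06 and 0.25). With 1 library per group the difference was not tested. The value at high fluence was 0.49 after rescaling to an FPKM total of 1000000 and -0.09 after centring on expression bins.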

How the results depend on the processing

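No paired analysis was possible because each group has 1 library. Relative to the median of all loci, the median log2 ratio of the 8 genes lay between 0.68 and 0.78 at low fluence, between 0.52 and 0.76 at high fluence and between 0.08 and 0.21 for high over low fluence, over the main setting and 9 alternatives. Without that reference, rescaling to an FPKM total of 1000000, which shifted the median of all loci by -0.12, 0.79 and 0.92 in the 3 comparisons, gave medians of 0.53, 1.31 and 0.99. It put 5 genes at least 2-fold higher at high fluence than in the control and 4 than at low fluence, against 20.5% and 30.0% of all loci on that scale. At high fluence the median over the 8 genes was 0.68 with median-of-ratios scaling, 0.73 with upper-quartile scaling, 0.76 with equal totals over annotated loci, 0.71 with centring on bins and 0.37 with adjacent assembled units added. For high over low fluence it was 0.15 with equal totals and 0.21 with centring. A pseudocount of 0.1 put 1 gene, GAPA, past 2-fold lower for high over low fluence, against 3.36% of all loci. At a ratio of at least 1.5, 7 genes were higher at low fluence than control, against 4.60% of all loci. For high over low fluence 1 was higher at that ratio, against 4.36%, and 2 lower, against 10.8%. At a ratio of at least 3, 0 genes were higher in either comparison with control, and the share of all loci past that ratio was not counted. The share of annotated loci at least 2-fold apart was 2.01%, 7.58% and 4.14% in the 3 comparisons, and changed to 6.58% (low to control) and 8.18% (high to low) with a minimum mean of 1 FPKM, and, for high fluence to control, to 4.25% with no minimum and 11.7% with a minimum of 100 FPKM. The causes were not tested. Of 216 single-gene values under these alternatives, 133 moved by less than 0.1 on the log2 scale. None that was past 2-fold as deposited changed sign, but some short of 2-fold did. For high fluence to control these were values of transketolase and GAPA. For high over low fluence they were values of aldolase, SBPase and phosphoribulokinase. Unknown depth and the lack of replicates limit every value.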
